A study of Mus musculus with 24 samples.

Results

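Gene expression was compared between macrophages of Pparg fl/- LysCre mice and of Pparg+/- LysCre mice that were cultured with IL-4 and vehicle, with no PPARγ ligand added. The comparison rests on 6 of the 24 arrays of the study, chosen by genotype and culture as the labels give them: 3 arrays of Pparg+/- mice (mice 1, 2 and 3) and 3 arrays of Pparg fl/- mice (mice 4, 5 and 6). All mice were of the C57Bl/6 strain, and their age is not given in the sources used here. Femoral marrow was grown into macrophages over 10 days with M-CSF, a macrophage growth factor, at 20 ng/ml. The 6 cultures described here also received 20 ng/ml IL-4 and the solvent (DMSO and ethanol). The other cultures of the same 6 mice lacked IL-4, received 1 µM rosiglitazone (RSG), a synthetic PPARγ agonist, or both.

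Both genotypes carried LysCre, a Cre transgene in the lysozyme locus that is active in myeloid cells, and both carried 1 null allele of Pparg. The other allele was intact in Pparg+/- cells and floxed, that is open to deletion by Cre, in Pparg fl/- cells. The controls were therefore not wild-type. Each mouse gave 1 culture and 1 array to each of its 4 conditions, so the 3 arrays of a group are 3 animals. Conditions share mice, but no culture is used in more than 1 of them.

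PPARγ is a nuclear receptor that binds DNA together with RXR and is activated by fatty acids and their oxidized forms. In macrophages it is known for genes of fatty acid uptake, binding and storage. IL-4 acts through its receptor, the JAK kinases and the transcription factor STAT6, and leads macrophages into alternative activation, marked by Arg1 (arginase), Retnla (a resistin-like protein), Chil3 (a chitinase-like lectin) and Mrc1 (the mannose receptor). The comparison asks how far cells open to the loss of PPARγ differ from control cells in this state when no synthetic ligand is added.

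Values are given as the deposited ratio of each array. In most probe sets the median of the arrays stands at a ratio of 1, so that ratios of different genes cannot be set against each other and the brightness of a gene is not known. Differences are log2 of Pparg fl/- over Pparg+/-, with a standard error (SE) from limma and Benjamini-Hochberg adjusted p-values. Called means a difference of 1.5-fold or more whose adjusted p was below 0.05. The median difference over all 43349 probe sets tested was 0.0745, and 0.0413 after the arrays were centred on their medians.

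Among the 6 arrays, correlations of log2 ratios ran from 0.246 to 0.385 within a genotype (median 0.289) and from 0.174 to 0.365 between genotypes (median 0.307). The 2 genotypes did not separate by this measure. The array of mouse 4 (Pparg fl/-) stood apart with a residual SD of 0.726, against at most 0.682 on the other 23 arrays. Lyz2, the lysozyme gene whose locus carries the Cre, split the mice in another way. With IL-4 and vehicle its ratios were 0.578, 21.6 and 0.347 in Pparg+/- mice 1 to 3 and 20.0, 0.364 and 0.309 in Pparg fl/- mice 4 to 6. Mice 2 and 4 were high in all 4 of their cultures, with ratios from 16.6 to 21.6, and the other mice were between 0.296 and 1.15. One mouse of each genotype was thus high. The labels do not give the number of LysCre copies, and the part of this split in the results was not tested beyond the values given beside them.

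**Figure D1:**
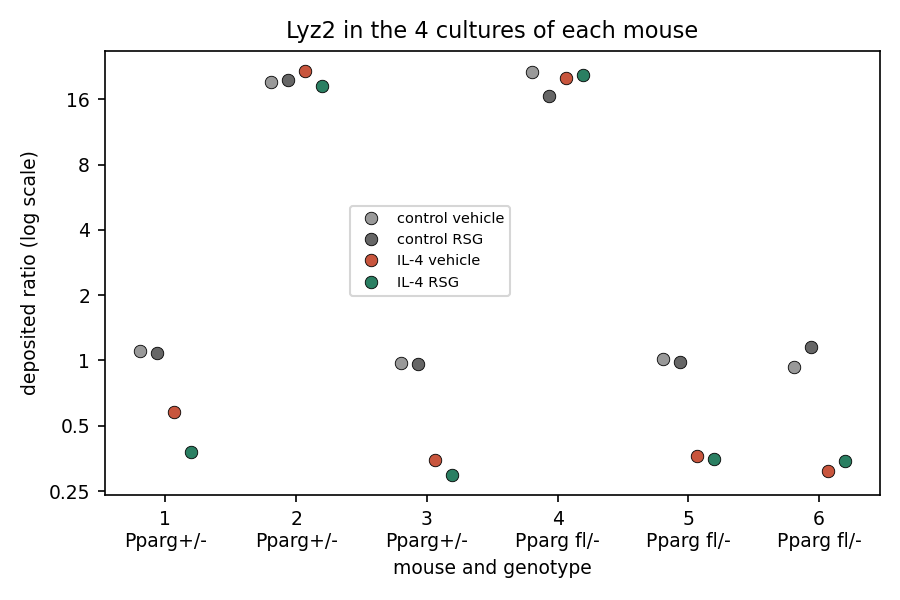
Ratio of Lyz2 (probe set 1423547_at, log axis) in the 4 cultures of each of the 6 mice, with points coloured by culture. Mice 2 (Pparg+/-) and 4 (Pparg fl/-) lie between 16.6 and 21.6 in every culture and the other 4 mice at 1.15 or below.

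Pparg itself was not lower in Pparg fl/- cells. Its probe set 1420715_a_at had ratios of 2.02, 1.71 and 1.46 in Pparg+/- cells and of 1.86, 2.91 and 3.16 in Pparg fl/- cells. The groups overlapped, with mouse 4 inside the range of the controls and mice 5 and 6 above it. The log2 difference was 0.59 ± 0.26 (SE; 95% confidence interval 0.05 to 1.12; limma adjusted p = 0.51). Without IL-4 the ratios were 0.579, 0.51 and 0.558 against 0.578, 0.703 and 1.09, and with RSG alone 0.362, 0.547 and 0.46 against 0.607, 0.901 and 1.12. With IL-4 and RSG they were 1.09, 0.91 and 0.895 against 1.93, 2.41 and 2.81, a log2 difference of 1.29 (limma adjusted p = 0.032). In that condition every Pparg fl/- array lay above every control. The position of these probes against the floxed part of the gene was not analysed here, so these values do not check the deletion. For the deletion the study itself reports near complete recombination by PCR, and that Fabp4 was no longer induced by RSG.

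A single probe set was called between the genotypes with IL-4 and vehicle, 1454777_at of Slco2b1, which encodes an organic anion transporter of the plasma membrane. It fell, and no probe set rose: 1 of 43349 is 0.00231%. With a weight estimated for each array, 2653 probe sets were called, where the array of mouse 6 had a weight of 9.05 and that of mouse 4 a weight of 0.22. Its ratios were 1.33, 0.841 and 1.00 in Pparg+/- cells and 0.158, 0.187 and 0.27 in Pparg fl/- cells. The groups lay far apart, with every Pparg fl/- array below every control. The log2 difference was -2.38 ± 0.28 (SE), which is 5.2-fold lower (95% confidence interval 3.47-fold to 7.80-fold; limma adjusted p = 0.0035). Mouse 4 against mouse 2, the pair high in Lyz2, gave -2.41, and the other 4 mice gave -2.36. The call was lost without mouse 1 (adjusted p = 0.058 in limma), without mouse 3 (0.17), without both mice high in Lyz2 (0.15) and when only these 6 arrays were fitted (0.57).

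The same probe set was also lower in Pparg fl/- cells in the other cultures, by values that did not pass the test. Without IL-4 its ratios were 0.737, 1.36 and 1.4 against 0.657, 0.461 and 0.726, a log2 difference of -0.89 ± 0.28. With RSG alone they were 1.68, 2.15 and 2.26 against 1.09, 0.996 and 1.15 (-0.90 ± 0.28), and with IL-4 and RSG 1.49, 1.46 and 1.54 against 0.559, 0.724 and 0.931 (-1.05 ± 0.28, limma adjusted p = 0.11). In none of the 4 conditions did the genotypes overlap. With vehicle, control cells had overlapping ratios with and without IL-4, and Pparg fl/- cells were lowest with IL-4 and vehicle. The change of the genotype difference by IL-4 was -1.49 ± 0.39 (limma adjusted p = 0.75) and that by RSG 1.33 ± 0.39 (0.97), and neither passed.

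Other probe sets of Slco2b1 did not all follow. 1433933_s_at had ratios of 0.497, 0.302 and 0.293 against 0.226, 0.114 and 0.0763 with IL-4 and vehicle (log2 difference -1.49 ± 0.48, limma adjusted p = 0.36). In this probe set mouse 4 against mouse 2, the pair high in Lyz2, gave only -0.41, and the other 4 mice gave -2.03. Its difference was -1.81 without IL-4, -1.89 with RSG alone and -1.88 with IL-4 and RSG, again with no overlap in any condition. Both of these probe sets thus lay lower in Pparg fl/- cells in every culture. 1458171_at ran the opposite way with IL-4 and vehicle, with ratios of 1.44, 0.496 and 0.608 against 5.27, 3.47 and 4.99 (log2 difference 2.57 ± 0.53, limma adjusted p = 0.19). With IL-4 and RSG its difference was -2.32 ± 0.53 (adjusted p = 0.056 in limma). The direction given for Slco2b1 therefore rests on 2 of its 3 probe sets, and where each lies in the transcript was not analysed here.

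**Figure D2:**
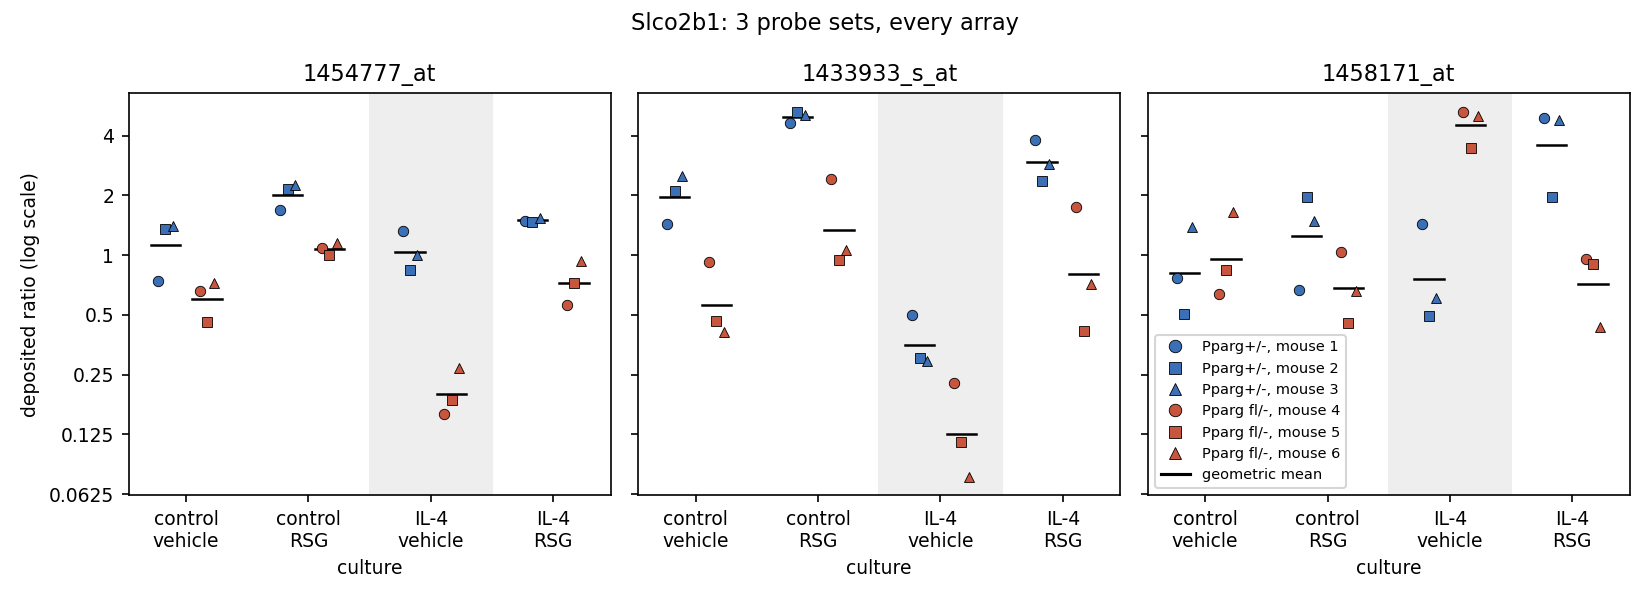
Deposited ratio (log axis) of the 3 probe sets of Slco2b1 on all 24 arrays, by culture and genotype, with the culture with IL-4 and vehicle shaded and bars at the geometric means. In 1454777_at and 1433933_s_at the Pparg fl/- arrays lie below the controls in all 4 cultures, and in 1458171_at they lie above them with IL-4 and vehicle.

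RefSeq gives Slco2b1 3 transcription starts on chromosome 7, and its promoter windows (build GRCm38.p6, 250 bases before to 50 after the start, 5′ to 3′ in the direction of the gene) are shown because it is the only gene called. They were searched on both strands for the letters AGGTCA, the core site of nuclear receptors, for AGGTCANAGGTCA, the direct repeat bound by PPARγ and RXR, which holds the core site in it, and for TTCNNNNGAA, the spacing that STAT6 prefers. Of 32851 promoter windows in the table, 16.3% held AGGTCA, 0.0396% held AGGTCANAGGTCA and 6.95% held TTCNNNNGAA. None of the 3 windows of Slco2b1 held any of these letters, so they are printed in lower case throughout.
Slco2b1, start 1 (chr7:99711291-99711590, strand -): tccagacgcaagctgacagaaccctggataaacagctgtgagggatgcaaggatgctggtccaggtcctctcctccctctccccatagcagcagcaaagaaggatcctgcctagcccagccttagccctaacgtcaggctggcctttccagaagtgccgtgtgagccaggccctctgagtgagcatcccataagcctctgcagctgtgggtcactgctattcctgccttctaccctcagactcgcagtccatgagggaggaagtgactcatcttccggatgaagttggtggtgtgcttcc
Slco2b1, start 2 (chr7:99706793-99707092, strand -): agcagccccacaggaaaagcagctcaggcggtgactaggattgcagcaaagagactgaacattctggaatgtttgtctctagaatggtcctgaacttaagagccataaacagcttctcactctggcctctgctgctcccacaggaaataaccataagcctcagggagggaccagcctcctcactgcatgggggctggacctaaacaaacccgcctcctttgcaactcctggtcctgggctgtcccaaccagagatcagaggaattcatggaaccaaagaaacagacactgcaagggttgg
Slco2b1, start 3 (chr7:99695760-99696059, strand -): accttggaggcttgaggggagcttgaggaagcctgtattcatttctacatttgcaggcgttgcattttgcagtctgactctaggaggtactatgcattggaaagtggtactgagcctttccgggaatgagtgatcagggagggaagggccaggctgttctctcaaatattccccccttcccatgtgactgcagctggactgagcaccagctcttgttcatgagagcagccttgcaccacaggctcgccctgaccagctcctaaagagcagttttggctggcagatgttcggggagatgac

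Genes known as PPAR targets were the group next looked at. Of the 27 measured, limma called 0 in either direction (0% of all genes by the probe set that stood for them), and 6 had an unadjusted p below 0.05, as did 9.71% of all genes, 5 of the 6 lower in Pparg fl/- cells. Between the genotypes, 3 of the 27 did not overlap and differed by at least 1.5-fold, all of them lower in Pparg fl/- cells (Fabp4, Angptl4 and Mgll), where 2.18% of all 17737 genes were lower by this measure and 3.13% higher. The median log2 difference was -0.10, against 0.10 over all genes. In all, 19 of the 27 targets (70.4%) had a difference below 0, against 35.4% of all genes. With the arrays centred the medians were -0.14 for the targets and 0.069 for all genes. Without IL-4 the median of the targets was 0.022, with 12 of 27 below 0, and with IL-4 and RSG it was -0.022, with 14 of 27 below 0. Set against the median of all genes in each condition, 20 of the 27 targets lay below it with IL-4 and vehicle, 19 without IL-4, 18 with RSG alone and 19 with IL-4 and RSG. By that measure the count of targets on the low side hardly moved between cultures.

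Fabp4, the fatty acid binding protein of adipocytes and macrophages, had ratios of 0.665, 0.549 and 0.426 in Pparg+/- cells and 0.357, 0.355 and 0.289 in Pparg fl/- cells (1417023_a_at). The groups did not overlap. The log2 difference was -0.70 ± 0.23 (SE; 95% confidence interval -1.17 to -0.22; limma adjusted p = 0.37). The other 3 probe sets of Fabp4 gave -0.31, -0.53 and -0.65, so that all 4 had the same sign. With IL-4 and RSG the difference of 1417023_a_at was -0.85, and without IL-4 it was -0.23.

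Angptl4, a secreted inhibitor of lipoprotein lipase, had ratios of 0.701, 0.474 and 0.633 against 0.0684, 0.412 and 0.21 (1417130_s_at). Every Pparg fl/- array was below every control, but mouse 5 only narrowly and mouse 4 by far the most. The log2 difference was -1.72 ± 0.49 (95% confidence interval -2.74 to -0.69; limma adjusted p = 0.29). Mouse 4 against mouse 2 gave -2.79 and the other 4 mice -1.18. A second probe set, 1453410_at, gave -1.78 ± 0.91 with overlapping groups.

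Mgll, the monoacylglycerol lipase, had ratios of 1.8, 1.33 and 1.11 against 0.696, 1.03 and 0.427 (1453836_a_at), with no overlap. Its log2 difference was -1.04 ± 0.32 (limma adjusted p = 0.32), and it was much the same in the other cultures, at -1.12 without IL-4, -1.59 with RSG alone and -1.01 with IL-4 and RSG. Of its other probe sets, 1426785_s_at and 1450391_a_at gave -1.06 and -0.95, and 1431331_at gave 0.88 ± 0.85. The 3 probe sets near -1 kept the groups apart and the fourth did not. Mgll lies on chromosome 6, as Pparg does, and the part of this in its difference was not tested.

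Plin2, the coat protein of lipid droplets, had ratios of 1.17, 1.13 and 0.981 against 0.922, 0.745 and 0.825 (log2 difference -0.40 ± 0.13, limma adjusted p = 0.37). The groups did not overlap, though the difference was under 1.5-fold. Without IL-4 it was 0.070. Cpt1a, which carries fatty acids into mitochondria, had ratios of 0.816, 0.705 and 0.729 against 0.471, 0.584 and 0.596 (1460409_at, -0.45 ± 0.18, limma adjusted p = 0.47). Its difference was 0.13 without IL-4 and -0.75 with IL-4 and RSG. The other 2 probe sets of Cpt1a gave -0.34 and -0.26 with overlapping groups. The probe sets described had a difference below 0 with IL-4 and a small positive one without it, and the changes by IL-4 did not pass the test.

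Of the 5 genes whose promoters were looked up (Slco2b1, Fabp4, Angptl4, Mgll and Plin2), 3 were found in the RefSeq table by symbol. The window of Plin2 (same build and span) is shown because it is the only one of these that held any of the 3 motifs, a single AGGTCA on the reverse strand that begins 218 bases before the start and reads TGACCT on the strand shown, in capitals. The 2 windows of Mgll held none.
Plin2 (chr4:86670010-86670309, strand -): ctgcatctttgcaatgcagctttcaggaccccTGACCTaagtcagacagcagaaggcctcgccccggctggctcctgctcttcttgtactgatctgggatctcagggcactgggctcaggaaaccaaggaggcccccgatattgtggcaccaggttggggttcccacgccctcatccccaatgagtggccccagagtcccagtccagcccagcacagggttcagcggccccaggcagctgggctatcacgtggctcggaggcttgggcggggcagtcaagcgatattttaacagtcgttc

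Other targets had wide errors or small differences. Pdk4, which inhibits pyruvate dehydrogenase, had ratios of 0.802, 0.793 and 0.331 against 0.0651, 0.295 and 0.6 (log2 difference -1.40 ± 0.81). Cidec, another lipid droplet protein, gave -1.12 ± 1.05. Their groups overlapped. Cd36, the fatty acid transporter and scavenger receptor, gave -0.093, -0.20 and -0.22 in its 3 probe sets, with 95% confidence intervals that reached no lower than -0.43. Lpl, which releases fatty acids from lipoproteins, gave -0.13 and -0.17, Hilpda, a lipid droplet protein induced in hypoxia, 0.020 ± 0.29, and the 6 probe sets of Tgm2, a transglutaminase, between -0.38 and 0.21. At the other end of the list, Aqp9, a glycerol channel, gave 0.34 ± 0.39 and Ehhadh, an enzyme of peroxisomal fatty acid oxidation, 0.32 ± 0.23. Fabp3, another fatty acid binding protein, gave -0.091 with IL-4 and vehicle but 0.77 with IL-4 and RSG (1416023_at, limma adjusted p = 0.0068), and its other probe set gave -0.060 and -0.21.

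**Figure D3:**
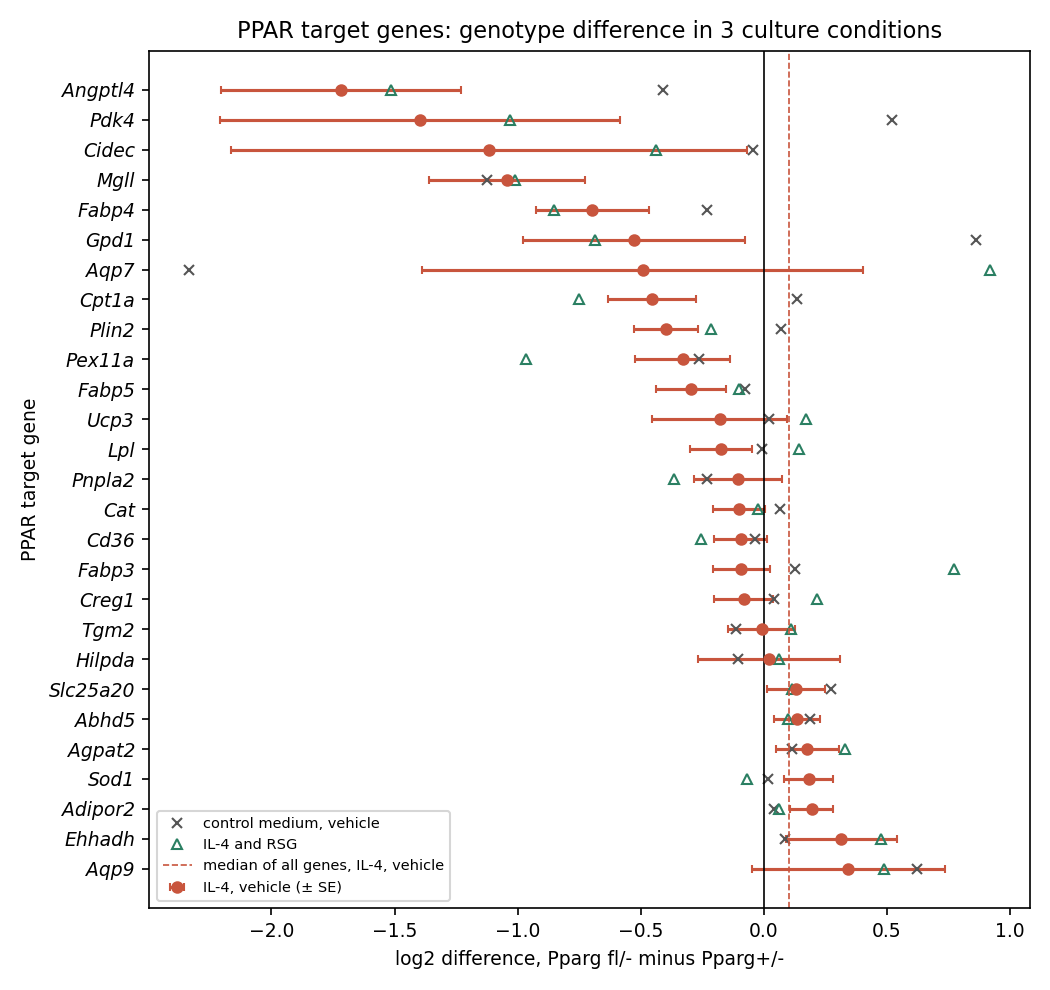
Log2 difference between Pparg fl/- and Pparg+/- cells for the 27 PPAR target genes, 1 probe set each, with IL-4 and vehicle (filled points, bars are SE), without IL-4 (crosses) and with IL-4 and RSG (triangles). With IL-4 and vehicle 19 of the 27 lie below 0, down to -1.72 for Angptl4, and the dashed line at 0.10 is the median of all genes.

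The 4 classical markers of alternative activation overlapped between the genotypes, and none was called. Arg1 had ratios of 3.13, 2.91 and 2.48 in Pparg+/- cells and 2.66, 1.99 and 2.75 in Pparg fl/- cells (log2 difference -0.21, 95% confidence interval -0.44 to 0.020). Retnla had ratios of 3.12, 2.9 and 2.45 against 3.14, 1.99 and 2.86 (-0.10, -0.37 to 0.17). In both genes mouse 5 was the lowest array. For Chil3 the ratios were 2.8, 2.73 and 2.33 against 2.31, 1.79 and 2.64 (-0.23, -1.08 to 0.61), and for Mrc1 they were 1.12, 1.16 and 1.13 against 1.03, 1.14 and 1.24 (-0.0026, -0.22 to 0.21). For Mrc1 the sign changed without mouse 2 or mouse 4. The intervals leave room for differences of at most 0.44 on the log2 scale in Arg1, Retnla and Mrc1 and of 1.08 in Chil3. Alox15, the lipoxygenase that oxidizes arachidonic and linoleic acid, gave 0.55 ± 0.78 with ratios of 0.28, 0.461 and 0.365 against 0.415, 0.862 and 0.411, and Stat6 gave 0.26 ± 0.21 and 0.49 ± 0.24 in its 2 probe sets.

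Over the whole list, 39 alternative activation markers were measured, limma called 0 and 1 had an unadjusted p below 0.05. The median was 0.21, and 25 lay above 0 and 14 below, where 64.6% of all genes lay above 0. Without overlap and at least 1.5-fold apart were 4 of them, all higher in Pparg fl/- cells, where 3.13% of all genes were. Dcstamp, a receptor needed for the fusion of macrophages and osteoclasts, had ratios of 5.12, 2.87 and 3.98 against 6.05, 7.85 and 7.75 (log2 difference 0.88 ± 0.41, limma adjusted p = 0.54). The groups did not overlap. With IL-4 and RSG the difference was 2.40 (limma adjusted p = 0.014), and without IL-4 it was 0.11. Ppp1r3c, a glycogen-targeting subunit of protein phosphatase, had ratios of 7.53, 6.54 and 11.2 against 12.6, 18.1 and 17.8 (0.96 ± 0.54). Flt1, a VEGF receptor, had 3.26, 5.9 and 6.54 against 7.22, 10.2 and 7.17 (0.69 ± 0.44). Irf4, a transcription factor of alternative activation, had 2.64, 2.23 and 2.48 against 2.92, 4.39 and 4.21 (0.63 ± 0.38). Mouse 4 was the lowest or near the lowest of the Pparg fl/- arrays in each of the 4, and none passed the test.

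**Figure D4:**
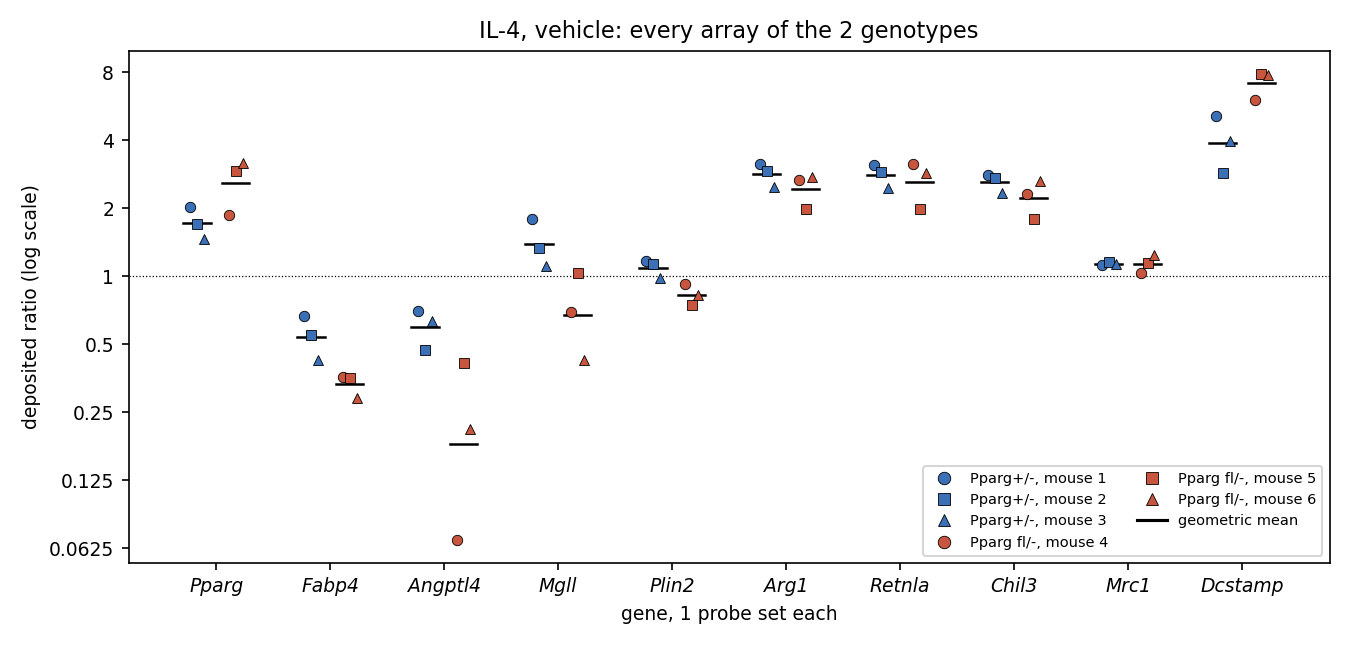
Deposited ratio (log axis) of 10 genes, 1 probe set each, on the 6 arrays with IL-4 and vehicle, with bars at the geometric means of each genotype. Arg1, Retnla, Chil3 and Mrc1 overlap between genotypes, while Fabp4, Angptl4, Mgll and Plin2 lie lower and Dcstamp higher in Pparg fl/- cells on every array.

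Differences without overlap were common among genes that were not called. At least 1.5-fold apart with no overlap were 1345 probe sets higher in Pparg fl/- cells (3.1%) and 1194 lower (2.75%), and the unadjusted p of 2228 of 43349 (5.14%) was below 0.05 at that size. On the high side the smallest adjusted p was 0.073. Phlpp2, a phosphatase that acts on AKT, had ratios of 0.463, 0.537 and 0.486 against 0.871, 1.07 and 0.895 (1435601_at, log2 difference 0.93 ± 0.15, limma adjusted p = 0.073), a tight and well separated pair of groups. Its other probe set gave -0.88 ± 0.68. 1600014C23Rik, a gene with no name of known function, had 0.666, 1.32 and 1.33 against 5.41, 5.5 and 5.21 (2.35 ± 0.39, limma adjusted p = 0.073). Here the 3 Pparg fl/- arrays were almost equal. A230001M10Rik gave 2.74 ± 0.44 in 1 of its 2 probe sets and 0.28 ± 0.80 in the other.

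Ppara, the PPAR of liver and oxidative tissues, had ratios of 0.235, 0.237 and 0.265 against 1.65, 1.74 and 0.951 (1457721_at, log2 difference 2.51 ± 0.50, limma adjusted p = 0.18). All 3 Pparg fl/- arrays were higher. The difference was 0.67 without IL-4 and -0.11 with IL-4 and RSG, and Ppard, the third PPAR, gave 0.22 ± 0.25. Jarid2, a component of Polycomb complexes, gave 0.82 ± 0.17 in 1450710_at, with ratios of 1.54, 1.64 and 2.08 against 2.79, 3.58 and 2.87, and 0.44 and 0.64 in its other 2 probe sets. With IL-4 and RSG the first gave 1.11 (limma adjusted p = 0.0084), so that Jarid2 lay higher in Pparg fl/- cells in both cultures with IL-4. Also among the 12 with the smallest p were Lrriq3 (2.64 in 1431957_at and -1.70, -0.47 and 0.28 in its other probe sets), Prl8a2, a prolactin family member (2.48), Pde2a, a cyclic nucleotide phosphodiesterase (1.64 in 1447708_x_at and 0.13 and 0.44 in its other probe sets), Cpne2, a copine (0.69), Gtsf1 (2.92 in 1452967_at, or 1.86 without mouse 3, and 1.81 in its other probe set) and P3h1, a prolyl hydroxylase of collagen (0.72), with limma adjusted p from 0.073 to 0.2.

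On the low side, Atp8a1, a phospholipid flippase, had ratios of 1.53, 1.56 and 1.71 against 0.38, 0.273 and 0.401 in 1444355_at (log2 difference -2.20 ± 0.37, limma adjusted p = 0.073), but its other 6 probe sets lay between -0.11 and 0.27. A single probe set of the gene thus stood apart. Ccr2, the receptor for the monocyte chemokine CCL2, had 0.663, 0.367 and 0.485 against 0.0731, 0.0614 and 0.0792 in 1421187_at (-2.79 ± 0.56, limma adjusted p = 0.18), and its other 3 probe sets gave -0.37, -0.47 and -0.71. All 4 had the same sign. Slc37a2, a sugar phosphate transporter of macrophages, had 1.11, 0.878 and 1.02 against 0.585, 0.627 and 0.685 (-0.66 ± 0.14, limma adjusted p = 0.2) and gave -0.94 with IL-4 and RSG (limma adjusted p = 0.0068). Smchd1, which acts in X inactivation, gave -0.99 in 1442497_at and -0.14 in the other probe set. Clip1, a microtubule tip protein, gave -1.11 in 1425060_s_at and between -0.54 and 0.20 in 4 others. The rest of the 12 were Fgd4, an exchange factor for Cdc42 (-2.52 in 1 probe set, -0.030 to 0.33 in 4 others), Dpysl3 (-2.68, -2.03 and -1.46), Ldb3, a Z-disc protein of muscle (-4.20, -0.65 and -0.10), Gm266 (-2.18 and 0.020), Nhsl2 (-2.86, -1.02 and 0.51) and Tmem86b (-1.55, 0.43 and 0.45). In all of these but Dpysl3, probe sets of the same gene differed in sign or were close to 0.

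None of the 22 lists of genes by function and 11 lists of cell markers had a member called by limma, by any probe set. Of their 553 genes measured, 43 (7.78%, against 9.71% of all genes) had an unadjusted p below 0.05, and 26 (4.7%, against 5.31% of all genes) lay at least 1.5-fold apart without overlap, 16 higher and 10 lower in Pparg fl/- cells. For the function lists, medians ran from -0.14 to 0.30, with 12 of the 22 above the 0.10 of all genes. Highest was the list of growth factors and eicosanoid enzymes (median 0.30, 22 genes, 2 not overlapping and at least 1.5-fold higher and 1 lower). In it, Tgfb1, the cytokine TGF-β1, had ratios of 0.874, 0.79 and 1.04 against 1.12, 1.35 and 1.25 (log2 difference 0.47 ± 0.14, limma adjusted p = 0.3). Tgfbi, a matrix protein induced by TGF-β, had 1.02, 0.906 and 1.09 against 1.4, 1.48 and 1.46 (1415871_at, 0.53 ± 0.14, limma adjusted p = 0.25), and its other 3 probe sets gave 0.19, 0.22 and 0.35. Hbegf, a ligand of the EGF receptor, had 2.33, 2.82 and 3.22 against 3.63, 4.52 and 4.94 (0.65 ± 0.23), and Bmp2, a bone morphogenetic protein, 1.39, 0.787 and 1.08 against 1.98, 2.65 and 2.39 (1.13 ± 0.42). All 4 lay higher on every Pparg fl/- array, Tgfb1 and Tgfbi by under 1.5-fold. The other 2 are the 2 of 22 counted above, where 3.13% of all genes were higher by that measure. Except for Tgfbi, these genes were chosen after their values were seen, and 6 of the 22 lay below 0. Hpgds, the synthase of prostaglandin D2, had 0.305, 0.201 and 0.208 against 0.161, 0.115 and 0.138 (-0.77 ± 0.40), lower on every array.

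Inflammatory genes had a median of 0.17 over 31 genes. Cd40, a costimulatory receptor, had ratios of 1.11, 1.27 and 1.6 against 2.34, 2.42 and 2.19 (log2 difference 0.82 ± 0.22, limma adjusted p = 0.26). Il12b, a subunit of IL-12 and IL-23, had 0.899, 0.836 and 0.416 against 1.29, 1.4 and 1.69 in 1449497_at (1.09 ± 0.29, limma adjusted p = 0.25), and 1419530_at gave 0.71 ± 0.87. The 2 genes did not overlap between genotypes in the probe sets first named. With Mmp9 (1.01 ± 5.29), they are the 3 of 31 at least 1.5-fold higher without overlap, where 3.13% of all genes were. Tnf gave -0.065, Il1b 0.019 and Il6 -1.21 ± 1.35. Genes of MHC class II presentation had the lowest median of the function lists, -0.14 over 13 genes. In it H2-Aa gave -0.16 ± 0.65 and H2-Ab1 -0.14 ± 0.61, and with IL-4 and RSG the median of the list was 0.42.

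Lists of lipid metabolism other than the PPAR targets had medians from -0.075 to 0.17. Fatty acid oxidation had a median of 0.066 over 23 genes, triglyceride storage and lipolysis -0.018 over 13, LXR targets and cholesterol efflux -0.039 over 13, cholesterol biosynthesis -0.075 over 17 and fatty acid synthesis 0.17 over 15. No gene in these 5 lists was at least 1.5-fold apart without overlap by the probe set that stood for it. Nearest to the test was Acot2, a mitochondrial thioesterase (1422996_at, ratios 1.05, 1.11 and 1.31 against 1.53, 1.98 and 1.38, log2 difference 0.49 ± 0.15, limma adjusted p = 0.35). Its groups did not overlap, at under 1.5-fold. Dhcr7, an enzyme late in cholesterol synthesis, gave -0.42 ± 0.17 and Fads2, a fatty acid desaturase, -1.48 ± 0.80 in 1419031_at, which was -0.43 without mouse 6, the lowest array, -0.91 in 1449325_at, which did not overlap, and -0.078 in the third. The remaining lists had medians between -0.045 (lysosomal genes) and 0.26 (cell cycle), and a few members of them stood out. Glb1, a lysosomal galactosidase, had ratios of 1.01, 0.8 and 0.563 against 1.07, 1.97 and 1.51 (0.94 ± 0.28). Bub1b, a spindle checkpoint kinase, had 0.393, 0.219 and 0.234 against 0.0868, 0.0879 and 0.12 in 1416961_at (-1.49 ± 0.35), while its other 2 probe sets gave 1.49 and -0.66. Its direction therefore depended on the probe set. Cd5l, a soluble scavenger protein of macrophages, had 0.545, 0.307 and 0.334 against 0.705, 0.728 and 0.618 (0.83 ± 0.28), and Timp3, an inhibitor of metalloproteinases, 0.529, 1.58 and 0.558 against 0.227, 0.234 and 0.133 in 1449334_at (-2.02 ± 0.69). The other 3 probe sets of Timp3 gave -0.85, 0.044 and 0.28. Socs3, a feedback inhibitor of JAK kinases, had 0.86, 1.12 and 0.636 against 0.505, 0.348 and 0.574 (-0.87 ± 0.52). Groups did not overlap in any of these, and none passed the test.

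**Figure D5:**
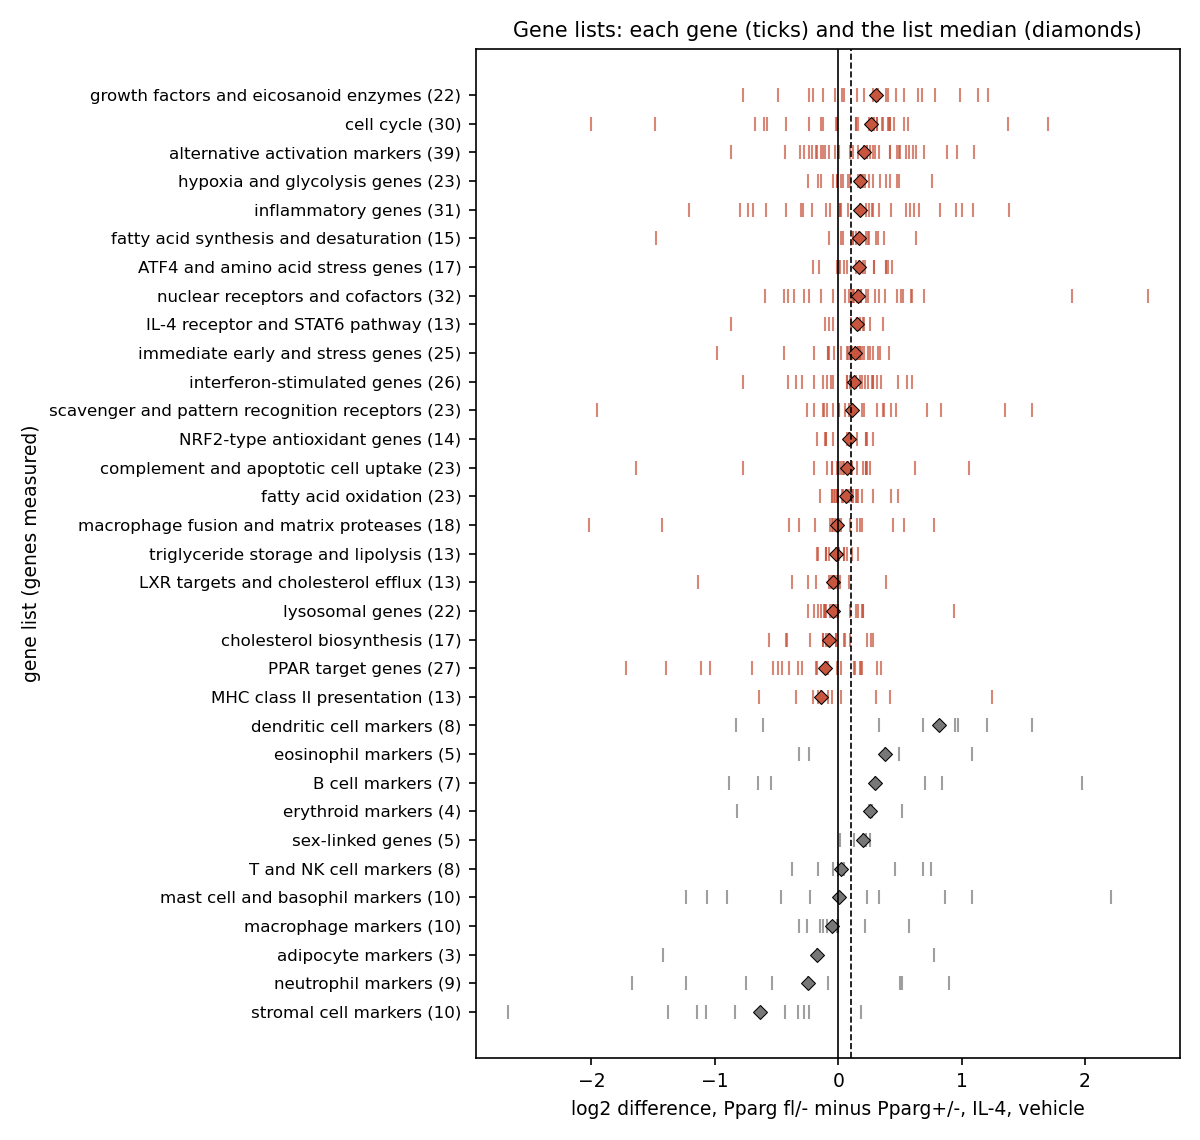
Log2 difference between Pparg fl/- and Pparg+/- cells with IL-4 and vehicle for each gene (ticks) of the 22 function lists (red) and 11 marker lists (grey), with diamonds at the list medians. The dashed line is the median of all genes, 0.10, and the medians of the function lists lie between -0.14 and 0.30.

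Markers of cell types were read the same way, since the share of other cells in a culture and their RNA content cannot be told apart on an array. Macrophage markers had a median of -0.048 over 10 genes. Leaving aside Lyz2, described above, they ran from -0.25 for Fcgr1, an Fc receptor, to 0.57 for Cx3cr1, the fractalkine receptor, with Csf1r (the M-CSF receptor) at -0.0041 and Spi1 (the transcription factor PU.1) at 0.22. Because ratios carry no brightness, they do not show how abundant these markers were. Of the 10 stromal markers 9 lay below 0 (median -0.63), with the mean log2 ratio of the list between -2.08 and -0.76 on the Pparg+/- arrays and between -2.35 and -1.90 on the Pparg fl/- arrays, so that the groups overlapped. Without IL-4 the median of that list was 1.69. Dendritic cell markers had a median of 0.82 over 8 genes, 6 above 0 and 2 below. The mean log2 ratio of these 8 ran from -0.83 to -0.30 on the Pparg+/- arrays. On the Pparg fl/- arrays it ran from -0.32 to 0.63, so that the groups overlapped narrowly. Neutrophil markers had a median of -0.25 over 9, B cell markers 0.30 over 7 and T and NK cell markers 0.022 over 8. No marker of any list was called. Pdgfra, a growth factor receptor of fibroblasts, gave -2.68 ± 0.71 in 1421917_at without overlap, and 1.22 and -0.50 in its other probe sets. Adipoq, the adipocyte hormone adiponectin, had ratios of 1.01, 1.24 and 1.18 against 0.0921, 0.881 and 0.938, with mouse 4 far below the rest (-1.42 ± 0.85, and -0.32 without mouse 4). The other adipocyte markers measured were Retn, the hormone resistin, at 0.78 and Lpl at -0.17, which is the median of the 3. The 5 sex-linked genes measured lay between 0.012 and 0.26. The part of these markers in the differences above was not tested.

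Genes next to Pparg on chromosome 6 were described apart, because the chromosome around a floxed and an intact allele can differ. Of the 50 genes on each side, 0 were called. Without overlap and at least 1.5-fold apart were 5 higher and 4 lower (9% of 100, against 5.31% of all genes and 6.72% of the 967 genes of the chromosome). The median was 0.11, close to that of all genes.

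Whether the genotype difference itself changed with the culture was tested in the same fit, which did not pair the cultures of a mouse. From control medium to IL-4, both with vehicle, 0 of 43349 probe sets passed (0%), with a smallest adjusted p of 0.31 in limma and 1888 probe sets (4.36%) 1.5-fold or more apart with an unadjusted p below 0.05. From vehicle to RSG, both with IL-4, 0 passed as well (0%), with a smallest adjusted p of 0.16 and 1762 (4.06%) by the unadjusted measure. Taken one by one, the genotype difference had 0 calls without IL-4 (0%), 2 with RSG alone (0.00461%) and 217 with IL-4 and RSG (0.501%, 154 higher and 63 lower in Pparg fl/- cells). At any size of difference, 3947 probe sets had an unadjusted p below 0.05 in limma without IL-4 and 3963 with IL-4 and vehicle. By the same measure there were 4027 with RSG alone and 4958 with IL-4 and RSG. The larger count with RSG does not show that those genes differ less with vehicle.

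The probe sets called with IL-4 and RSG were read in the vehicle cultures, which are other cultures of the same 6 mice. Of the 154 higher ones, 145 (94.2%) were also above 0 with vehicle, where 64.6% of all genes, 1 probe set each, were. The median of the 154 was 0.41 with vehicle against 1.1 with RSG. Of them, 31 (20.1%) lay at least 1.5-fold apart in that direction without overlap, where 3.1% of all probe sets did. Of the 63 lower ones, 53 (84.1%) were below 0, against 35.4% of all genes. The median of the 63 was -0.46 against -1.42, and 19 (30.2%) did not overlap at that size, against 2.75% of all probe sets. None of the 217 was called with vehicle. These sets were picked by their size with RSG, which favours large values there, so the medians with vehicle and with RSG are not a like comparison. Both cultures came from the same mice, so differences between mice apart from Pparg can appear in both, and this was not tested. Selp, the adhesion receptor P-selectin, had vehicle ratios of 7.61, 13.7 and 18.3 against 31.4, 32.8 and 30.8 (log2 difference 1.35 ± 0.67, and 3.23 with RSG). Tmem178, a membrane protein of the endoplasmic reticulum, had 1.11, 0.405 and 0.929 against 1.96, 2.33 and 1.83 (1.44 ± 0.43, and 2.90 with RSG), and Cep162, a protein of centrioles, 1.53, 2.29 and 1.9 against 0.622, 0.794 and 0.829 (-1.34 ± 0.44, and -2.66 with RSG). These 3 did not overlap in the vehicle cultures. Others did not follow: Rad50, of the MRE11 repair complex, gave 1.15 ± 0.77 with vehicle and -4.27 with RSG, and Fezf2, a transcription factor of the brain, 0.026 with vehicle and -3.03 with RSG.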

How the data were processed

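Total RNA was hybridized to Affymetrix arrays of the mouse genome, 24 in all, of which 6 are compared here. The deposited values are expression ratios that the authors made with GC-RMA in GeneSpring 7.3, scaled first to the middle percentile of the array and then to the median that a probe set had across arrays. GCOS is also listed by the submitters' processing notes. A median ratio within 0.005 of 1 was held by 82.2% of probe sets, and 17.1% had a median under 0.95, for which the divisor was not determined here. The last division by control arrays that the methods describe was not found in these values.

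Ratios were floored at 0.01, reached by 124 values, and log2 transformed. Of 45101 probe sets, 64 controls and 1688 that reached the median of the array on fewer than 3 arrays were left out, and 43349 were tested. One gene symbol was given to 34945 probe sets, several to 932 and none to 9160, and 34754 were matched by gene identifier in RefSeq tables (GRCm38.p6). Probe sets with more than 1 symbol named no gene. Where 1 probe set stood for each of the 17737 genes, the one that varied most with culture condition over both genotypes was taken.

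Differences came from limma 3.58.1 (R 4.3.3), with 1 mean for each of 8 groups over 24 arrays, a mean-variance trend and Benjamini-Hochberg adjustment. Mice differ between genotypes, so mouse could not be a fixed block for the genotype difference. The changes of that difference by IL-4 and by RSG compare cultures of the same mice, and the fit did not use this pairing. With mouse as a random block these changes had 0 calls as well. The number of arrays limits the precision. On simulated data with 43349 probe sets, the test of this comparison recovered 27% of 100 probe sets changed 2-fold and 54% of 100 changed 4-fold, and called 5 unchanged probe sets. There the residuals of each probe set were shuffled over the 24 arrays, so the wider spread of the array of mouse 4 was not kept. The planted changes also ease the adjusted threshold, so the shares recovered may be lower in the real data.

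The named genes were Pparg, Lyz2, genes the study names, the 12 with the smallest p in each direction without overlap and at least 1.5-fold, and the member of each list with the smallest p. Other members of the PPAR target, alternative activation, inflammatory and growth factor lists, the genes called with IL-4 and RSG and further probe sets were chosen after their values were seen. Members and lists were chosen with earlier results of these data known. Of 601 list genes, 48 had no tested probe set with 1 symbol and were not analysed here. Alternatives were other scaling, filtering, floor, spread and weighting, leaving out mice, and the t-test of the methods.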

Additional observations from a re-analysis of the deposited data

How the results depend on the processing

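The single call, Slco2b1, was made also with centred arrays, quantile normalization, no filter, a floor of 0.05, no mean-variance trend and with each mouse as a random replicate block (1 call each, adjusted p from 0.0023 to 0.0054 in limma). For the genotype difference no fixed pairing was possible because the genotypes are different mice. It was not made with only the 6 arrays of the comparison (0 calls, adjusted p = 0.57) or by the methods' t-test (0 calls, 0.69), at the same log2 difference of -2.38. Weights per array gave Slco2b1 a log2 difference of -1.96 that was called, and 2653 calls in all, 1186 higher and 1467 lower, and 67 and 52 calls for the changes by IL-4 and by RSG. The weight of mouse 6 was then 9.05 and that of mouse 4 was 0.22. Leaving out 1 mouse gave 1 to 14 calls (2 without mouse 1, 6 without mouse 2, 1 without mouse 3, 14 without mouse 4, 13 without mouse 5 and 9 without mouse 6). The changes by IL-4 and RSG then had 0 to 6 and 0 to 2 calls, 6 and 2 of them without mouse 4 and 1 for RSG without mouse 3. Without the mean-variance trend the change by RSG had 1 call.

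Chosen after seeing the data, leaving out the array of mouse 4 gave 3 calls, leaving out the 2 mice high in Lyz2 gave 1 call that was not Slco2b1 (adjusted p = 0.15 for it), and the Lyz2 level of the mouse as a block gave 1. Signs turned in 6 of 65 named probe sets. With array weights Retnla was 0.037, Chil3 0.013, Mrc1 0.11, Cd36 0.026 and Thy1 -0.14 (0.69 without weights). Leaving out a mouse gave -0.24 to 0.092 for Retnla, -0.066 to 0.066 for Mrc1, -0.15 to 0.025 for Cd36 and -2.28 to 1.55 for Lyz2. Without the array of mouse 4 Mrc1 was 0.066 and Cd36 0.025, and without the 2 mice high in Lyz2 they were 0.080 and 0.0034. The cause of these shifts was not tested. Ratios hold no signal over background, so which values lay near it cannot be said.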
